A study of Homo sapiens with 6 samples.

Results

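Clustered histone genes are the 66 rows, of 20683 in the deposited count files, whose symbol begins with HIST1H, HIST2H, HIST3H or HIST4H. They comprise 6 genes of the linker histone H1, 15 of H2A, 20 of H2B, 12 of H3 and 13 of H4. By RefSeq, 55 of them lie on chromosome 6, 10 on chromosome 1 and 1 on chromosome 12. The cells were HT-1080, a long-established line from a human fibrosarcoma, a connective tissue tumour. The inhibitor group received SLV-8472-01, a code-named inhibitor of the kinase IRAK4, for 24 h at a concentration labelled 5 mM; whether that unit is right could not be checked. The control group received 0.1% DMSO, the solvent, for 24 h. Each group had 3 libraries made from total RNA with an amplicon panel, and the series calls them biological replicates.

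Core histones H2A, H2B, H3 and H4 form the protein spool of the nucleosome, and the linker histone H1 binds the DNA where it enters and leaves that spool. Most clustered histone genes have no intron and are transcribed in step with DNA replication. Their mRNAs usually end in a stem-loop in place of a poly(A) tail. The stem-loop-binding protein SLBP holds that element through processing, export and translation, and the mRNAs are destroyed when S phase ends. In bulk RNA, fewer cells in S phase and less histone mRNA per cell cannot be told apart.

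Library depth lay between 9162281 and 13184553 counts, and levels are given as CPM (the counts of a gene per fixed number of library counts), with library sizes adjusted by the trimmed mean of M values, TMM. Each gene was read through its own PCR product, so a higher CPM of one gene than another says nothing of their mRNA levels, and class sums and ranks by CPM weigh genes by their counts alone. Chi-square per degree of freedom was 5.37 to 6.90 between inhibitor libraries and 10.4 between DMSO 1 and DMSO 2, but 25.8 and 38.5 between DMSO 3 and these, so DMSO 3 stood apart. In the fibrosarcoma marker list 9 of 10 genes were measurable, while THY1 had 1 count in all. Of 10 markers of other cell types, 7 had no count in any library. PECAM1 was measurable at a low level, with 50 counts under inhibitor and 35 under DMSO.

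The stem-loop is shown because it is the element that sets these mRNAs apart. In GENCODE release 29 transcripts, 25 of the 66 genes, 17 of them among the tested genes, had a match downstream of the stop codon. None of the H1 genes had a match, HIST1H1C and HIST1H1E, described below, included. No match says only that the annotated transcript does not hold these letters. Capitals mark both arms of the 6-base stem and lower case marks the 4-base loop, in DNA letters.
HIST1H2AC: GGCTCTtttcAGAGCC
HIST1H2BC: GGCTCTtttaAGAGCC
HIST1H2AG: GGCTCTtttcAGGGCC
HIST1H4E: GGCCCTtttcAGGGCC
HIST1H4I: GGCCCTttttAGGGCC
The annotated HIST1H2AC transcript ran 1114 bases past its loop and the HIST1H2AG transcript 1761 bases, whereas the HIST1H2AI transcript ran 39 bases past it.

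Promoters are shown for the 3 genes that changed and for a pair of H4 genes described with them. Each is the 250 bases before the transcription start in RefSeq, build GRCh38.p14, and 32 of the 36 tested genes had one. Capitals mark the TATA box letters TATAAA, the CCAAT box letters CCAAT, the octamer ATTTGCAT and the H1 box letters AAACACA. Each was searched on both strands, and the TATA and H1 box letters can share bases.
HIST1H1C, chr6:26056471-26056720, minus strand: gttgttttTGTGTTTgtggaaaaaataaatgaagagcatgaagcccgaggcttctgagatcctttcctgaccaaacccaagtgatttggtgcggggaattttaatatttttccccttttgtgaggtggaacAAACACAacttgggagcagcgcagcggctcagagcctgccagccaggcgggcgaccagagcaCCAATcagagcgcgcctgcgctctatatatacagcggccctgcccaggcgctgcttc
HIST1H1E, chr6:26156079-26156328, plus strand: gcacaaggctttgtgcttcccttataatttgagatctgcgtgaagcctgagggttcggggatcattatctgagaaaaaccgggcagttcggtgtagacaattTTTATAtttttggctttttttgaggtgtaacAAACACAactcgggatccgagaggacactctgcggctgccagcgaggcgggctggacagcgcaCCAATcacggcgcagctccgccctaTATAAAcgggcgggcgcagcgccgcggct
HIST1H2AC, chr6:26123922-26124171, plus strand: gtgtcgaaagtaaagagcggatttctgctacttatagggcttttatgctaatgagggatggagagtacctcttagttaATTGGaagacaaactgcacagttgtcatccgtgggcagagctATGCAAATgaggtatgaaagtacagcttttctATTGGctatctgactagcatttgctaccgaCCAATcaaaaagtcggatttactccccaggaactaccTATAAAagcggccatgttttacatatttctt
HIST1H4E, chr6:26204360-26204609, plus strand: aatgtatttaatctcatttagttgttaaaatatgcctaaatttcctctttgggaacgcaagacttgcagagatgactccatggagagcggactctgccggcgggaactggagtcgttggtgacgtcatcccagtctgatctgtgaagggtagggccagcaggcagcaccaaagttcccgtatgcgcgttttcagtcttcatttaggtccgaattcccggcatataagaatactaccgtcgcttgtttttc
HIST1H4H, chr6:26285535-26285784, minus strand: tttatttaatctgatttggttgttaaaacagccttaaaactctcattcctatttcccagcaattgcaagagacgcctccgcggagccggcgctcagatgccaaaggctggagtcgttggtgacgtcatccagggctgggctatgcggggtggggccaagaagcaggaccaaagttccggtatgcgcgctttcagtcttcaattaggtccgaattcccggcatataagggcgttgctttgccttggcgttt
TATAAA occurred in 23 of the 32 promoters (71.9%), against 10.7% of all 35116 RefSeq promoters of this length. CCAAT occurred in 29 (90.6%), against 32% of all, and the octamer in 14 (43.8%), against 1.63% of all. The octamer was found in 7 of 10 H2A and 7 of 11 H2B promoters and in none of the H1, H3 or H4 promoters. AAACACA was found in both H1 promoters and in no other tested histone promoter, against 4.82% of all. Of the 4 H4 promoters 1 held TATAAA and 1 held CCAAT, and those of HIST1H4E and HIST1H4H held none of the 4 motifs. These are matches of letters, not measured binding.

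The comparison of inhibitor with DMSO asks which transcripts differ after 24 h with the inhibitor. IRAK4 activity itself was not measured here. In the inhibitor libraries 3 clustered histone genes fell, the linker histone genes HIST1H1C and HIST1H1E and the H2A gene HIST1H2AC, and none rose. Of the 66 genes, 36 passed the filter on low counts and were tested. Of all 11216 tested genes, 3.87% were called, 1.92% as lower and 1.95% as higher. A call is a Benjamini-Hochberg adjusted p under 0.05 in the quasi-likelihood test of edgeR. That is 215 lower and 219 higher genes, or 163 lower and 336 higher on library totals alone. The count of 0 risers among the histone genes was also 0 with DESeq2 and limma-voom, and 1 gene, HIST2H3D, was higher at an unadjusted edgeR p under 0.05, against 10.3% of all tested genes. At that unadjusted level 12 histone genes were lower, against 9.23% of all tested genes.

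The median log2 fold change of the 36 tested genes was -0.21, beside -0.00438 for all tested genes, and 27 of the 36 lay below 0, against 50.6% of all tested genes. In 8 of them every inhibitor library was below every DMSO library, against 11.8% of all tested genes, and in 1 every inhibitor library was above, against 13.7%. DMSO 3 was the lowest DMSO library in 33 of the 36, against 41.2% of all tested genes. Leaving DMSO 3 out therefore had to move the fold changes of most of these genes down. Without DMSO 3, edgeR called 19 of the 36 lower and none higher, against 11.1% lower and 10.8% higher of all genes tested in that fit, and at that setting the median was -0.36. Without any other single library 1 or 2 were called. Calls over all genes were 434 with all libraries, 125 without inhibitor 1 and 99 at the lowest with a library left out. The annotated transcripts of the 36 genes had a median GC content of 55.8%, against 49.3% for all tested genes with a value. With each library's trend on GC content removed, HIST1H2AG was called lower together with the same 3 genes.

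Summed by class, the counts were lower on average in the inhibitor libraries for all 5 classes. For H1 the sum was 769, 798 and 758 CPM in inhibitor 1 to 3, against 1174, 1253 and 1141 CPM in DMSO 1 to 3. The groups did not overlap, and the log2 ratio of their means was -0.62. HIST1H1C and HIST1H1E made up 99.9% of these counts.

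The summed H2A level was 2387, 2602 and 2469 CPM in inhibitor 1 to 3, against 3235, 3339 and 2581 CPM in DMSO 1 to 3, a log2 ratio of -0.30. The H2B sum was 2693, 2896 and 2667 CPM in the inhibitor libraries, against 3422, 3269.8 and 2566 CPM in the DMSO libraries, a log2 ratio of -0.17. In both classes DMSO 3 lay within or below the range of the inhibitor libraries, so the groups overlapped. The H3 sum was 2988, 2992 and 3125 CPM under inhibitor, against 4114, 3738 and 3209 CPM under DMSO, without overlap and with a log2 ratio of -0.28. HIST1H3C and HIST1H3B made up 96.0% of the H3 counts, and the median log2 fold change of the 5 tested H3 genes was -0.05. The H4 sum was 2179.6, 2422 and 2607 CPM under inhibitor, against 3435, 3362 and 2375 CPM under DMSO, a log2 ratio of -0.35. Here DMSO 3 fell among the inhibitor libraries again. The spread of the sums was 2.58% to 8.92% of the mean among the inhibitor libraries and 4.85% to 19.4% among the DMSO libraries. No test was made on these sums, because the genes were chosen with results known.

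**Figure D1:**
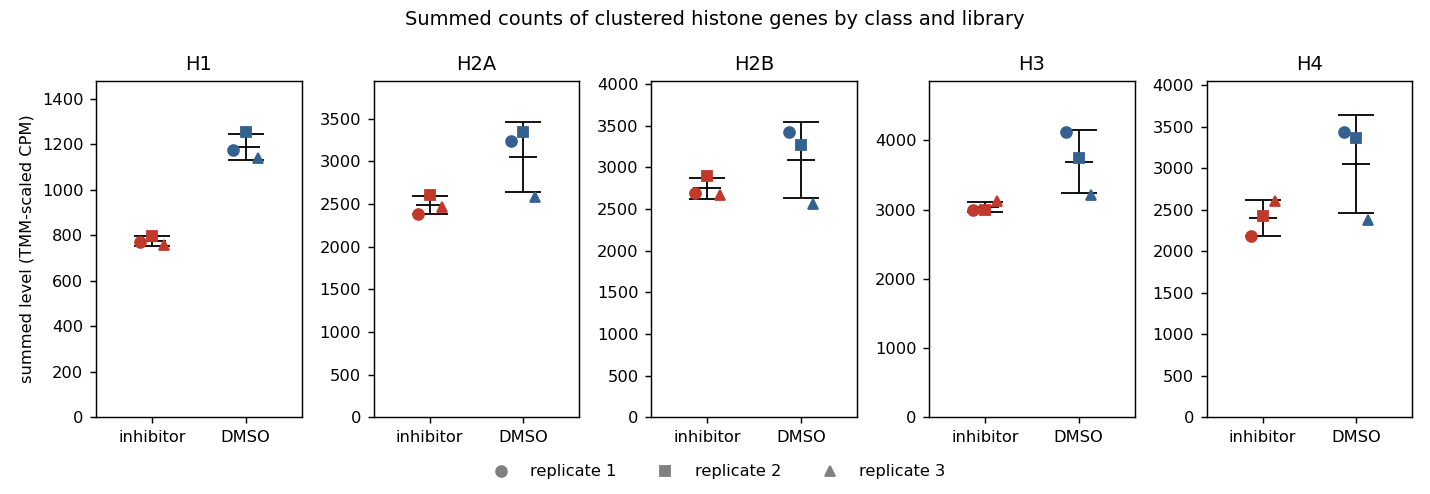
Summed TMM-scaled CPM of all clustered histone genes of a class, on an axis from 0, with 1 point per library and the mean ± SD of each group of 3. The inhibitor points lie below all DMSO points for H1 and H3, and DMSO 3 (triangle) is the lowest DMSO library in all 5 classes.

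Linker histone genes fell in both tested cases, against 1.92% of all tested genes called lower. HIST1H1C, which encodes H1.2, had 337, 335 and 313 CPM in inhibitor 1 to 3, against 474, 568 and 604 CPM in DMSO 1 to 3. It is the called gene whose highest DMSO value came from DMSO 3. Its mean was 328 ± 13.7 CPM under inhibitor and 549 ± 67.0 CPM under DMSO (SD, n = 3 each), and a difference of -0.74 in log2 (SE 0.121, adjusted p by edgeR = 0.00376), and the call held without any single library. HIST1H1E, which encodes H1.4, had 432, 462 and 444 CPM under inhibitor, against 699, 686 and 537 CPM under DMSO. The groups did not overlap, and DMSO 3 lay nearest the inhibitor libraries. The mean was 446 ± 15.2 CPM under inhibitor and 641 ± 90.1 CPM under DMSO (SD, n = 3 each), and the log2 difference was -0.52 (SE 0.123, edgeR adjusted p = 0.0321). Without any 1 library other than DMSO 3 the HIST1H1E call was lost, with edgeR adjusted p between 0.0539 (without DMSO 1) and 0.183 (without inhibitor 1), and on library totals alone it was 0.0503. The other H1 genes were barely counted. HIST1H1A had 4 counts in all inhibitor libraries together and 3 in the DMSO libraries, and HIST1H1T, the testis linker histone gene, had 19 under inhibitor and 7 under DMSO.

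Among 11 tested H2A genes 1 fell by edgeR, against 1.92% of all tested genes called lower. HIST1H2AC had 318, 349 and 311 CPM in inhibitor 1 to 3, against 518, 571 and 479 CPM in DMSO 1 to 3. Every inhibitor value was below every DMSO value. Its mean was 326 ± 20.0 CPM under inhibitor and 523 ± 46.3 CPM under DMSO (SD, n = 3 each), and the log2 difference was -0.68 (SE 0.116, edgeR adjusted p = 0.0049). Without inhibitor 1 it missed the threshold (edgeR adjusted p = 0.0521). HIST1H2AG had 540.5, 542 and 465 CPM under inhibitor, against 722, 738 and 606 CPM under DMSO. These groups did not overlap either, but at a log2 fold change of -0.42 (SE 0.12) the gene did not pass, with edgeR adjusted p = 0.0709. It was called by DESeq2 (adjusted p = 0.0344) and, by edgeR, without DMSO 3 (adjusted p = 0.000213). HIST2H2AB had 331, 335 and 320.3 CPM under inhibitor, against 431, 423 and 326 CPM under DMSO, a log2 fold change of -0.26 (SE 0.126). HIST1H2AH had 600.0, 674 and 691 CPM under inhibitor, against 703, 799.5 and 579.8 CPM under DMSO. Its groups overlapped (log2 fold change -0.08, SE 0.13). HIST1H2AK had the most positive value of the class, 28.8, 29.1 and 23.1 CPM under inhibitor, against 23.9, 24.4 and 16.3 CPM under DMSO (log2 fold change 0.32, SE 0.169, edgeR adjusted p = 0.315). Without DMSO 3 that value was 0.15. Without DMSO 3, 6 H2A genes were lower by edgeR, HIST2H2AB among them at -0.39, against 11.1% of all genes tested in that fit. DMSO 3 was the lowest DMSO library in all 11 H2A genes, so leaving it out had to move their values down.

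By edgeR, DESeq2 and limma-voom alike no call was made among the 12 tested H2B genes, against 3.87% of all tested genes by edgeR. At an unadjusted edgeR p under 0.05, 1 H2B gene was lower, against 9.23% of all tested genes. This was HIST1H2BC, with 449.6, 523 and 397 CPM under inhibitor, against 728, 591 and 445 CPM under DMSO (log2 fold change -0.37, SE 0.163, edgeR adjusted p = 0.234). DMSO 3 lay between the inhibitor libraries, and the value was -0.19 without DMSO 1 and -0.55 without DMSO 3. HIST1H2BD had 866, 939 and 912 CPM under inhibitor, against 1022, 1047 and 945 CPM under DMSO (log2 fold change -0.15, SE 0.106). The groups were apart by a few CPM. HIST2H2BE had 725, 722 and 685 CPM under inhibitor, against 919, 904 and 650.5 CPM under DMSO (log2 fold change -0.21, SE 0.134). HIST1H2BM had 269.7, 279 and 290.5 CPM under inhibitor, against 299.9, 302 and 195 CPM under DMSO (log2 fold change 0.07, SE 0.153). In both of these DMSO 3 was the lowest of all 6 libraries, and without it the values were -0.37 for HIST2H2BE and -0.12 for HIST1H2BM. Without DMSO 1 the HIST2H2BE value was -0.14. Without DMSO 3, 4 H2B genes were lower by edgeR, against 11.1% of all genes tested in that fit. DMSO 3 was the lowest DMSO library in 11 of the 12, so leaving it out had to move most values down.

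By the same 3 tools no call was made among the 5 tested H3 genes, against 3.87% of all tested genes by edgeR. With an unadjusted edgeR p under 0.05, 2 were lower and 1 higher, against 9.23% lower and 10.3% higher of all tested genes. HIST1H3C had 1772, 1662 and 1632 CPM under inhibitor, against 2163, 2036 and 1863 CPM under DMSO. Its groups did not overlap, at a log2 difference of -0.26 (SE 0.106, edgeR adjusted p = 0.194). HIST1H3B had 1087, 1194 and 1361 CPM under inhibitor, against 1789.6, 1556 and 1249 CPM under DMSO, and overlapped through inhibitor 3 and DMSO 3 (log2 fold change -0.34, SE 0.138, edgeR adjusted p = 0.195). HIST1H3A had 122, 125 and 123 CPM under inhibitor, against 155, 138 and 89.8 CPM under DMSO. The inhibitor libraries lay inside the DMSO range (log2 fold change -0.05, SE 0.167), and the sign of this value turned under several settings. HIST2H3D was the tested gene with every inhibitor value above every DMSO value, with 5.23, 7.13 and 6.14 CPM under inhibitor, against 4.38, 4.64 and 4.39 CPM under DMSO (log2 fold change 0.46, SE 0.196, edgeR adjusted p = 0.216). Without DMSO 3, HIST1H3B (-0.48) and HIST1H3C (-0.33) were lower by edgeR, against 11.1% of all genes tested in that fit. DMSO 3 was the lowest DMSO library in 4 of the 5 H3 genes, these included, so leaving it out had to move them down. HIST1H3B was at -0.22 without DMSO 1.

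Of 6 tested H4 genes none passed by edgeR or limma-voom, against 3.87% of all tested genes by edgeR. Lower at an unadjusted edgeR p under 0.05 were 3, against 9.23% of all tested genes. DESeq2 called 1 of the 6, HIST1H4E. That gene had 206, 218 and 264 CPM under inhibitor, against 339, 325 and 269.5 CPM under DMSO, with DMSO 3 just above inhibitor 3 (log2 fold change -0.44, SE 0.134, edgeR adjusted p = 0.0826). HIST1H4H had 665, 684 and 848 CPM under inhibitor, against 1125, 1123 and 711 CPM under DMSO (log2 fold change -0.43, SE 0.165, edgeR adjusted p = 0.163). In it DMSO 3 lay among the inhibitor libraries. HIST1H4B had 316, 335 and 292 CPM under inhibitor, against 465, 478 and 283 CPM under DMSO (log2 fold change -0.38, SE 0.168). HIST1H4C had 839, 1015 and 1004 CPM under inhibitor, against 1308, 1190.4 and 950.4 CPM under DMSO (log2 fold change -0.27, SE 0.133). Both again overlapped through DMSO 3. HIST1H4I, with 34 counts under inhibitor and 23 under DMSO in all, had a log2 fold change of 0.63 with an SE of 0.567, and this value lay between 0.25 (without DMSO 2) and 1.86 (without DMSO 1) with a library left out. Without DMSO 3, 5 of the 6 H4 genes were lower by edgeR, against 11.1% of all genes tested in that fit. DMSO 3 was the lowest DMSO library in all 6, so leaving it out had to move their values down. The values were then -0.63 for HIST1H4H, -0.60 for HIST1H4B and -0.41 for HIST1H4C. Without DMSO 2 HIST1H4B was at -0.25, and without DMSO 1 HIST1H4C was at -0.18.

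**Figure D2:**
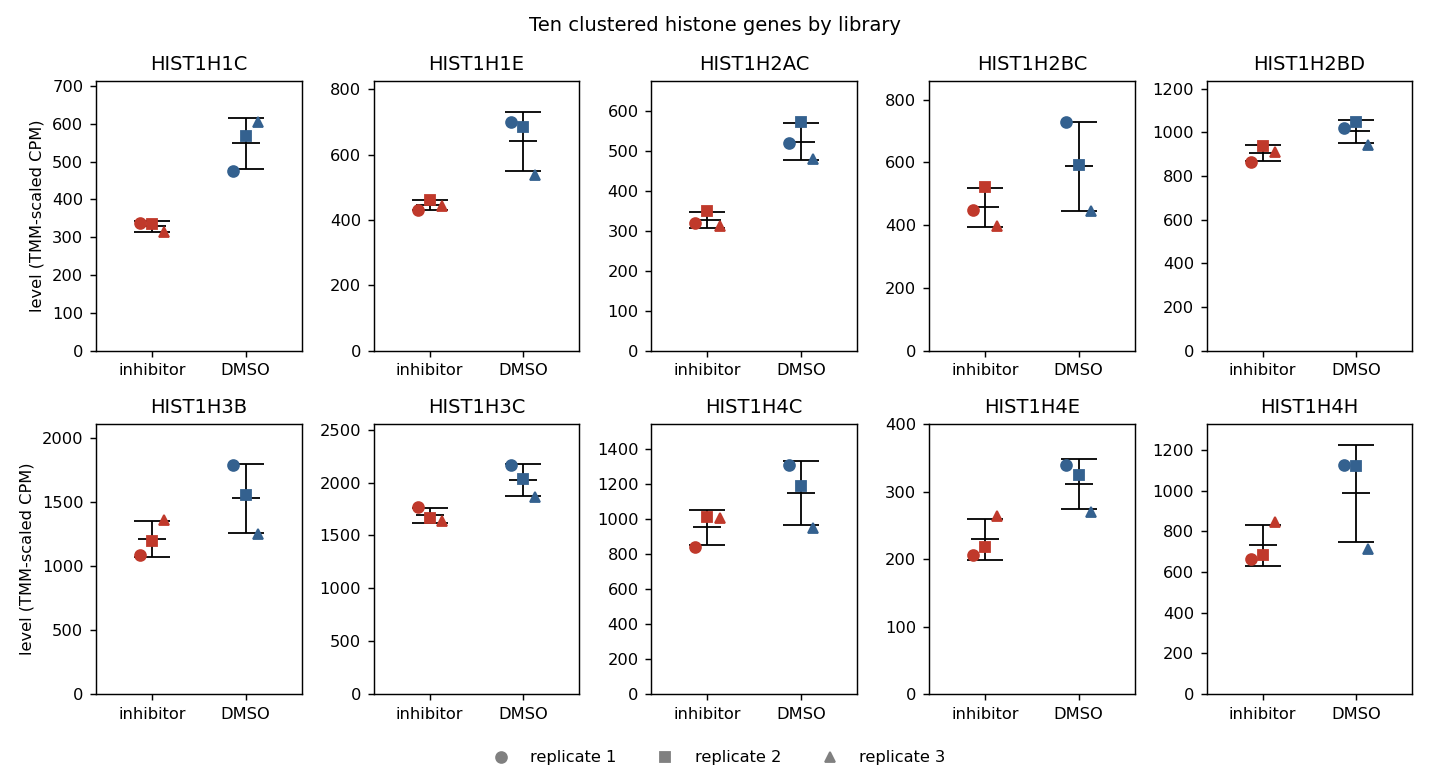
TMM-scaled CPM of 10 clustered histone genes in each library, on axes from 0, with the mean ± SD of each group of 3. In HIST1H1C, HIST1H1E and HIST1H2AC the inhibitor and DMSO points do not overlap, while in HIST1H4H DMSO 3 (triangle, 711 CPM) lies among the inhibitor points.

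**Figure D3:**
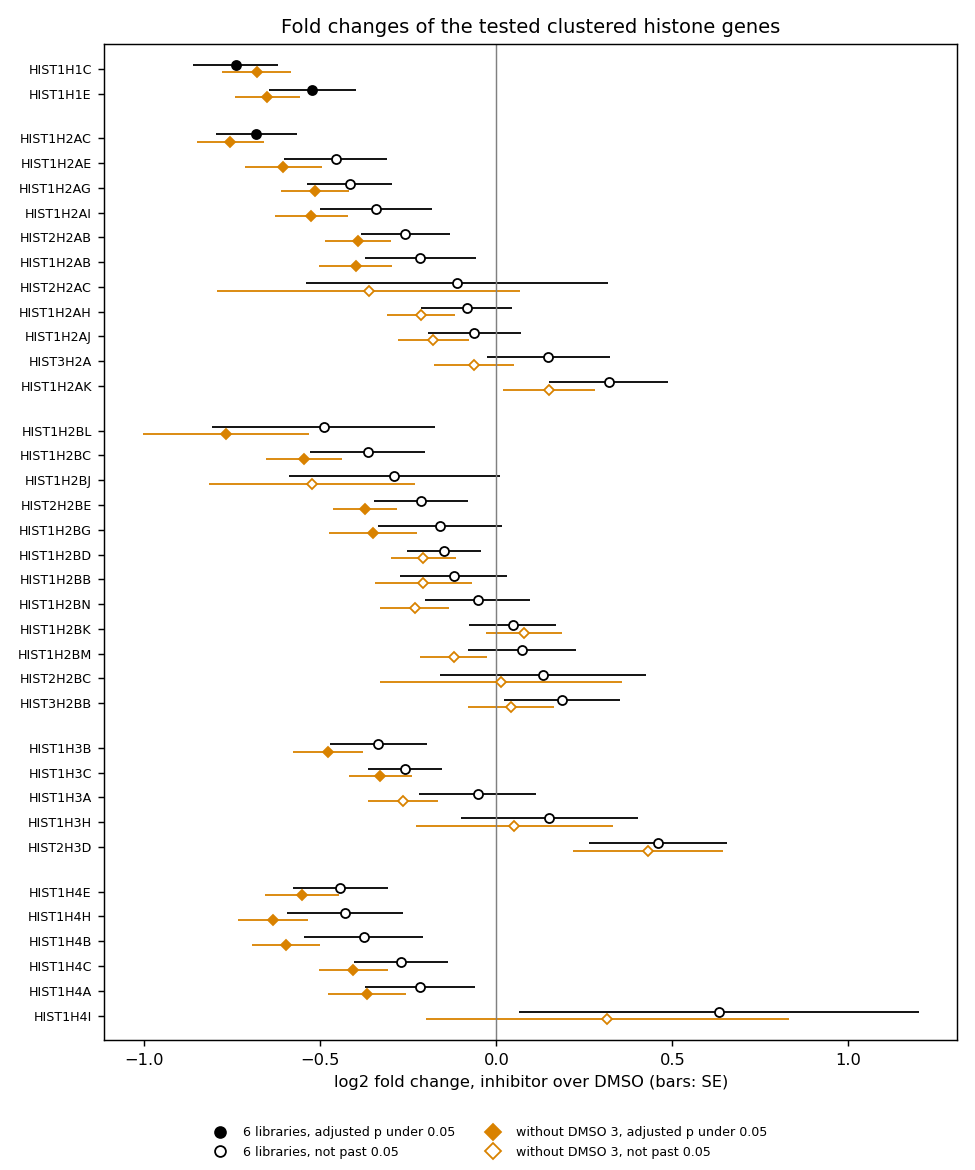
Log2 fold change of inhibitor over DMSO with its SE for the 36 tested clustered histone genes, grouped by class, with all 6 libraries (circles) and without DMSO 3 (diamonds); filled symbols passed an edgeR adjusted p under 0.05. With all libraries 3 circles are filled, and without DMSO 3 there are 19 filled diamonds, all below 0. DMSO 3 was the lowest DMSO library in 33 of the 36 genes, so leaving it out had to move most values down.

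The remaining 30 genes did not pass the filter. Of these, 8 had no count in any library, where 3 counts, the limit a count of 0 allows, equal 0.228 to 0.338 CPM. The other 22 had 1 to 57 counts over the 6 libraries and at most 15 in any library. They included HIST1H4J and HIST1H4K, both at 0, whose annotated coding sequences are identical to each other. The coding sequences of the tested genes with one were 77.5% to 98.8% identical to that of the nearest other histone gene of the class, with a median of 89.3%. How reads that fit several copies were counted is not stated by any source used here, so the split of counts between close copies, such as HIST1H2AI and HIST1H2AJ at 96.4%, is uncertain.

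Many H2A and H2B genes stand head to head and share the stretch between their starts. With both genes tested there were 8 such pairs. In the pair of HIST1H2BC and HIST1H2AC, whose starts lie 246 bases apart, the log2 fold changes were -0.37 and -0.68. HIST1H2BJ and HIST1H2AG were at -0.29 (SE 0.3) and -0.42 (SE 0.12), and HIST1H2BL and HIST1H2AI at -0.49 (SE 0.316) and -0.34 (SE 0.158). In these 3 pairs both values lay below 0 under every alternative that tested them. HIST1H2BJ had few counts, 67 under inhibitor and 88 under DMSO. As 27 of the 36 tested genes lay below 0, shared signs do not show that paired genes moved together, which was not tested. HIST1H2BL was at -0.77 without DMSO 3 and at -0.09 without DMSO 1. In the other 5 pairs the sign of at least 1 value depended on a library or, in the case of HIST1H2BN and HIST1H2AJ, also on a setting. HIST1H2BG and HIST1H2AE were at -0.16 and -0.46, HIST2H2BE and HIST2H2AC at -0.21 and -0.11, and HIST1H2AJ and HIST1H2BM at -0.06 and 0.07. The HIST2H2AC value had an SE of 0.429 and rested on few counts, 33 under inhibitor and 38 under DMSO. HIST1H2AK and HIST1H2BN were at 0.32 and -0.05, and HIST3H2A and HIST3H2BB at 0.15 and 0.19. Without DMSO 3, HIST3H2A was at -0.06 beside 0.04 for HIST3H2BB, and HIST1H2AJ at -0.18 beside -0.12 for HIST1H2BM. HIST1H2AC was the one gene called among these pairs with all libraries.

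Genes that control histone transcription and mRNA processing were set beside the clustered genes. SLBP, the stem-loop-binding protein gene, had 94.4, 104 and 97.9 CPM in inhibitor 1 to 3, against 61.0, 66.1 and 51.8 CPM in DMSO 1 to 3. All inhibitor values were above all DMSO values, and SLBP rose, with a log2 difference of 0.72 (SE 0.129, edgeR adjusted p = 0.00639), though not without inhibitor 2 (edgeR adjusted p = 0.0713). It was the single called gene of 21 tested for histone mRNA processing and decay, against 1.95% of all tested genes called higher. The median log2 fold change of those 21 was 0.04. Among the 10 genes of histone gene transcription 4 rose and none fell by edgeR, against 1.95% higher and 1.92% lower of all tested genes. The median log2 fold change of the 10 was 0.33. NPAT, the coactivator at histone loci that cyclin E and CDK2 phosphorylate, had 24.1, 22.1 and 22.5 CPM under inhibitor, against 13.7, 14.8 and 17.7 CPM under DMSO (log2 fold change 0.58, SE 0.147, edgeR adjusted p = 0.0414). CCNE2, a cyclin E gene, had 7.43, 11.4 and 11.1 CPM under inhibitor, against 4.30, 3.65 and 5.18 CPM under DMSO (log2 fold change 1.2, SE 0.217, edgeR adjusted p = 0.00701). The groups did not overlap in either gene. CCNE1 was at 0.86 (SE 0.215, edgeR adjusted p = 0.0402, limma-voom adjusted p = 0.0521) and E2F2, which encodes an activator of genes for entry into S phase, at 1.75 (SE 0.364, edgeR adjusted p = 0.0159). E2F2 had few counts, 40, 21 and 38 in inhibitor 1 to 3 against 15, 11 and 5 in DMSO 1 to 3. With so few DMSO counts, it passed the filter mainly through the inhibitor libraries. Where a mean count of at least 50 was required, E2F2 was not tested and the transcription list had 3 called genes. CASP8AP2, the FLASH gene of the histone locus body, had 0.32 (SE 0.183, edgeR adjusted p = 0.352). With a library left out, NPAT and CCNE1 each lost the edgeR call in 5 of 6 fits, and CCNE2 and E2F2 each in 3. The transcription list had 2 called genes without DMSO 1, none without DMSO 2, 1 without inhibitor 1, 1 without inhibitor 2, none without inhibitor 3 and 5 without DMSO 3. In that last fit 10.8% of all tested genes were called higher. Calls over all genes were 434 with all libraries, 125 without inhibitor 1 and 99 at the lowest with a library left out.

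Of 26 histone chaperone genes 1 rose and none fell by edgeR, against 1.95% higher and 1.92% lower of all tested genes. The median log2 fold change of the 26 was 0.13. CHAF1B, a subunit of the chromatin assembly factor that deposits H3 and H4 on new DNA, had 34.7, 37.7 and 39.5 CPM under inhibitor, against 26.4, 24.6 and 20.6 CPM under DMSO (log2 fold change 0.64, SE 0.138, edgeR adjusted p = 0.0198). Its groups did not overlap. NASP, a chaperone of H3 and H4 and of linker histones, was at 0.21 (SE 0.132, edgeR adjusted p = 0.408). The chaperone list had 7 higher genes without DMSO 3, against 10.8% of all genes tested in that fit. It had 1 without DMSO 1, and none without DMSO 2 or any single inhibitor library. With a library left out, calls over all genes were as few as 99, against 434 with all libraries.

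Histone genes outside the clusters, many of which encode variants made throughout the cell cycle, did not pass. Of 10 tested none was called by edgeR, DESeq2 or limma-voom, against 3.87% of all tested genes called by edgeR. The median log2 fold change was 0.05, and 1 gene was higher at an unadjusted edgeR p under 0.05, against 10.3% of all tested genes. That gene was H2AFX, the DNA damage-marking H2A variant gene, with 126, 135 and 139.7 CPM under inhibitor, against 109.9, 109.8 and 72.6 CPM under DMSO (log2 fold change 0.45, SE 0.154, edgeR adjusted p = 0.119). Its groups did not overlap, with DMSO 3 far the lowest, and the value was 0.27 without DMSO 3. H2AFX was called by edgeR with no filter on low counts (adjusted p = 0.0389) and with the GC trend removed (adjusted p = 0.0105). H2AFZ, the H2A.Z gene, was at 0.11 (SE 0.121), H3F3B, an H3.3 gene, at 0.07 (SE 0.151) and the linker histone genes H1F0 and H1FX at -0.17 (SE 0.119) and -0.07 (SE 0.128). H3F3A, the other H3.3 gene, had no count in any library. Whether the panel can read H3F3A was not tested, so this does not show that its mRNA was absent. Whether clustered and other histone genes differed in their response was not tested.

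**Figure D4:**
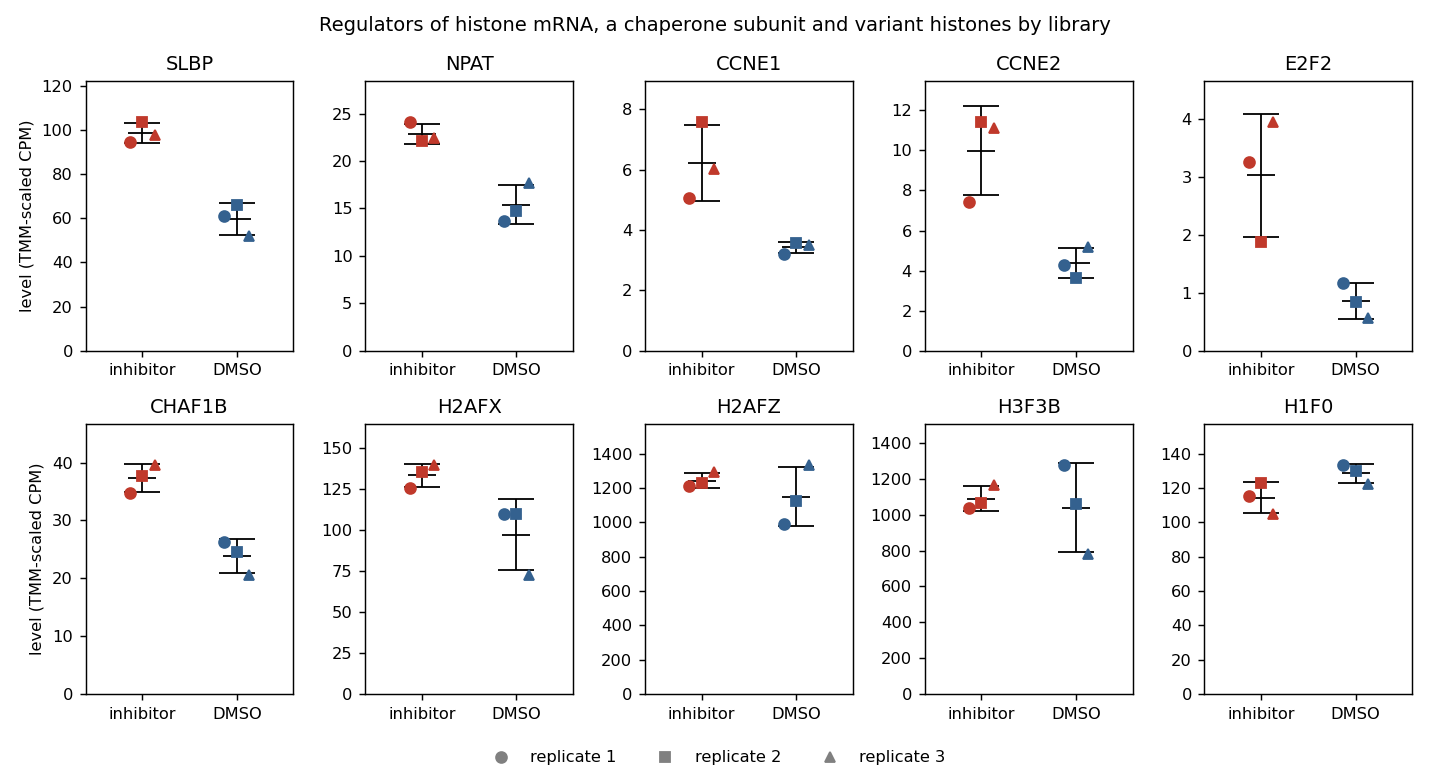
TMM-scaled CPM of 10 regulators, chaperone and variant histone genes in each library, on axes from 0, with the mean ± SD of each group of 3. The inhibitor points lie above all DMSO points for SLBP, NPAT, CCNE1, CCNE2, E2F2, CHAF1B and H2AFX, and overlap them for H2AFZ, H3F3B and H1F0.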

How the data were processed

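The authors deposited a file of whole-number counts per library, keyed by gene symbol and not normalized. HTSeq, DESeq2 1.20.0 and build hg19 appear in the submitters' processing notes without their roles, and no source used here names an aligner. Genes were kept by filterByExpr (minimum count 10, minimum total 15), scaled by TMM and tested with the quasi-likelihood test of edgeR 4.0.16 in R 4.3.3 with the group as the sole factor, and p-values were adjusted by Benjamini-Hochberg over all 11216 tested genes with a threshold of 0.05. The SE of a log2 fold change was taken from its size and the root of its F statistic, as their quotient. DESeq2 1.42.0 and limma 3.58.1 (voom) were alternatives, and these fits were tested on simulated counts. The GC alternative used a local regression with a span of 0.5. Whether the libraries came from separate cultures is stated only by the word biological, and p-values measure the spread between these libraries. No molecular identifiers are named, so reads are not independent molecules and floors cover counting error only.

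The genes and lists were chosen with earlier results of these data known. The files hold no row for 2 of the list genes. The genes named were every called gene, the 4 highest per class by mean CPM, the 3 most positive and 3 most negative fold changes, the called list genes and 10 fixed list genes; the head-to-head pairs, HIST1H2AI and the genes at 0 were chosen after their values were seen. Promoters were matched through older symbols to RefSeq for 59 of 66 genes.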

Additional observations from a re-analysis of the deposited data

How the results depend on the processing

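The direction of the 3 called histone genes held under every alternative run, and HIST1H1C was called under all of them. Library totals alone lost HIST1H1E (edgeR adjusted p = 0.0503). With 1 library left out, the HIST1H1E call was lost in 5 fits and the HIST1H2AC call in 1. The count of called histone genes was 3 as reported, 7 with no filter on low counts, 5 with DESeq2 and 1 to 19 with a library left out, the highest without DMSO 3. The count over all genes was 434 as reported, 831 with no filter, 720 with the GC trend removed and 99 to 2496 with a library left out. The same choices were applied to the other lists after the data had been seen. Variant histones had 1 called gene with no filter and 1 with the GC trend removed, in place of 0, and 0 to 0 with a library left out. Chaperones had 2 with the GC trend removed and 0 to 7 with a library left out, transcription genes 0 to 5, and processing genes 0 to 1. The log2 ratio of the H1 sum was -0.56 on library totals, and with a library left out the ratios lay between -0.66 and -0.58 for H1, -0.42 and -0.23 for H2A, -0.30 and -0.09 for H2B, -0.39 and -0.20 for H3, and -0.52 and -0.26 for H4. Among the genes named by rule, signs turned for 5 that were not called, HIST1H3A (0.00588 on library totals, 0.0157 with the GC trend removed, and -0.26 to 0.0988 with a library left out, above 0 without DMSO 1 or DMSO 2), HIST1H2AH (-0.213 to 0.0291, above 0 without DMSO 2), HIST1H2BM (-0.121 to 0.174, below 0 without DMSO 3), H3F3B (-0.115 to 0.236, below 0 without DMSO 3) and H1FX (0.00276 with the GC trend removed, and -0.145 to 0.0121, above 0 without inhibitor 3); the cause was not tested. The head-to-head genes, added after the data had been seen, turned as follows, again untested as to cause: HIST1H2AJ (0.00198 with the GC trend removed, and -0.179 to 0.0175, above 0 without inhibitor 1 or DMSO 1), HIST1H2BN (0.00504 on library totals, and -0.232 to 0.0347, above 0 without DMSO 1 or DMSO 2), HIST1H2BG (-0.35 to 0.0492, above 0 without DMSO 1), HIST2H2AC (-0.547 to 0.144, above 0 without inhibitor 1 or DMSO 1) and HIST3H2A (-0.0642 to 0.257, below 0 without DMSO 3). With the replicate number as a block, 3 histone genes were called, and 2 of the transcription genes in place of 4; same-numbered libraries did not deviate together (r = -0.0414, -0.0378 and -0.0882), so the numbers were not taken as pairs. Genes with few counts, such as HIST1H4I, limit what this depth can show.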
